A study of Mus musculus with 15 samples.

Results

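Hspa5, Xbp1, Herpud1, Dnajb9, Pdia4, Hsp90b1 and Calr are genes of protein folding and of the stress response of the endoplasmic reticulum (ER), followed here in bulk RNA of mouse muscle stem cells while the tissue was dissociated. They were chosen by name and function, with earlier results of these data known, and all 7 are among the 8059 genes of the deposited table. The ER is where secreted and membrane proteins fold, with the help of chaperones such as BiP (encoded by Hspa5) and of enzymes that form disulfide bonds. When unfolded protein builds up, the sensors IRE1, PERK and ATF6 start the unfolded protein response: IRE1 splices the Xbp1 mRNA so that it encodes an active transcription factor, ATF6 is cut to release another, and PERK phosphorylates eIF2alpha, which slows translation and favours the making of ATF4. XBP1 and ATF6 then raise chaperone and ER-associated degradation genes. Gene counts do not separate spliced from unspliced Xbp1, so the splicing itself was not measured here.

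The cells are muscle stem cells (satellite cells) of mouse skeletal muscle, from the bulk arm of the study. T0 is labelled as intact tissue, and T15, T30, T60, T90 and T120 as dissociated, numbers taken here as minutes because the labels give no unit. All time points are labelled as fixed, with PFA for fixation and a collagenase and dispase mixture for dissociation, and no strain, genotype, age or sex is given. The table holds 3 libraries at T30, 3 at T90 and 4 at every other time point, named here by time and letter (0A to 120D). Nothing says that the libraries of a time point came from separate animals, so the p-values measure the spread between these libraries, which may be technical.

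The counts summed over listed genes ran from 2974294 to 10482407 per library at T0 to T30 and from 8647622 to 27826437 at T60 to T120. The first principal component held 66.5% of the variance and put T0, T15 and T30 on one side and T60, T90 and T120 on the other. All 11 satellite cell markers on a marker list were listed, with a summed level of 5981 to 7564 CPM (counts scaled to the size of the library) at T0 and 5532 to 6505 at T120. Within that sum Pax7 was lower at T120 (311 to 478 CPM) than at T0 (1067 to 1523), as were Chodl (294 to 410 against 1057 to 1929) and Fgfr4 (361 to 638 against 933 to 1221), and Sdc4 was higher (2190 to 2986 against 352 to 472). Summed levels of 5 listed of 7 endothelial markers were 149 to 240 CPM at T0 and 321 to 599 at T120. Those of 5 listed of 6 smooth muscle and pericyte markers were 186 to 294 and 452 to 640 CPM. Of 5 immune markers only Cd68 was listed, at 9.44 to 11.9 CPM at T0 and 11.3 to 25.2 at T120. None of 3 plasma cell and none of 3 Schwann cell markers was listed, so no value can be given for them. The sum of 6 listed of 11 myofibre markers was 404 to 593 CPM at T0 and 170 to 404 at T120. Most of it was Ttn and Ryr1, while Acta1 was higher at T120 (18.7 to 53.2 CPM) than at T0 (6.83 to 9.39), and Tnnt3 stood at 11.9 to 27.4 against 5.13 to 13.0 CPM. The 3 listed of 6 fibroblast markers stood at 817 to 1549 and 929 to 1217 CPM. The part of these other cells in the results was not tested, and in bulk RNA fewer cells of a type and less RNA per cell cannot be told apart.

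On average the early libraries also carried more counts on long genes known mainly from other tissues, such as Muc16 and Dnah8. Over 9 of them, chosen after their values were seen, this background density was 2.43 ± 1.04 CPM per kb of exon at T0 (SD, n = 4), 4.26 ± 2.60 at T30 (n = 3) and 0.248 ± 0.0364 at T60 (n = 4). At T15 it was 1.52 ± 1.43 (n = 4), at T90 0.333 ± 0.112 (n = 3) and at T120 0.583 ± 0.427 (n = 4). Libraries 15A, 15B and 15C, at 0.892, 0.608 and 0.918 CPM per kb, were below library 120B, at 1.21. The density was highest in libraries 30A, 30B, 15D, 0C and 0A. Such a density would make up 12.2% to 47.5% of the Dnajb9 level in the T0 libraries, but at most 2.55% of the Calr level there. For the members, the called differences from T0 at T120 are given also with the background density subtracted and without these 5 libraries. So are some other member differences that depend on the background. Leaving out these 5 libraries leaves 1 library at T30 that is assumed to vary like the others. For the other ER genes such values are given only where stated.

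The RefSeq promoter windows of the members (GRCm38.p6, 250 bases before to 50 after the transcript start) were searched on both strands, because ATF6 and XBP1 act through known elements. The ER stress response element (ERSE) was taken as CCAAT, 9 bases of any kind and CCACG. ERSE-II was taken as ATTGG, 1 base and CCACG, and the core of the XBP1 element (UPRE) as TGACGTGG. Exact ERSE matches lie in the windows of Hspa5, Calr and Hsp90b1, which has 2 of them. Among all 32851 mouse windows of that length 39 hold such a match (0.119%). Herpud1 has the ERSE-II match (12 windows, 0.0365%), and no member has the UPRE core (222 windows, 0.676%). Dnajb9 has only the parts: CCACG, which 32.8% of windows hold, and CCAAT, which 37.4% hold. Each ERSE or ERSE-II match also counts as a match to those shorter motifs, which 6 of the 7 members hold. Parts of the windows of Hspa5 (120 bases), Hsp90b1 (65 bases) and Calr (3 bases) lie inside the first GENCODE exon of the gene, as do all 250 bases before the RefSeq start of Dnajb9, so only bases outside those exons are printed, and for Hspa5 the ERSE with 5 bases on each side. The stretches are 5′ to 3′ on the strand of the gene, for the 4 genes with a match. Capitals mark the ends of an ERSE or its reverse complement and the whole ERSE-II. They lie at chr2:34772020-34772048 (+), chr10:86705510-86705694 (−), chr8:84846935-84847181 (−) and chr8:94386179-94386428 (+).
Hspa5: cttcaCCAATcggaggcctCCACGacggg
Hsp90b1: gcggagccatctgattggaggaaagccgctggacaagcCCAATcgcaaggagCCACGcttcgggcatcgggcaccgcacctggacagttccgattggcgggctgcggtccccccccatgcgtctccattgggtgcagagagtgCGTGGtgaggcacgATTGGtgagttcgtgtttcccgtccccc
Calr: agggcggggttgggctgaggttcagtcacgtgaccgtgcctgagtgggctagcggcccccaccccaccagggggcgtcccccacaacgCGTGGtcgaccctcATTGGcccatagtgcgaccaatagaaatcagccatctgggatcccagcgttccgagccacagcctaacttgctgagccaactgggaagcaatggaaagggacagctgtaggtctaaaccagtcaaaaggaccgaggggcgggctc
Herpud1: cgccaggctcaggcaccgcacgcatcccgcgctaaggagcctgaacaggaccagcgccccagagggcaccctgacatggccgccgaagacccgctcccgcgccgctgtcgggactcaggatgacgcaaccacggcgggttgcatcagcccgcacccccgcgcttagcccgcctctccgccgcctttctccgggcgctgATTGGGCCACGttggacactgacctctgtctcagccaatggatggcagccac
In Hspa5 the ERSE covers bases -65 to -47 from the start, and in Herpud1 the ERSE-II covers -52 to -42. The Calr match is at -162 to -144 and the Hsp90b1 matches are at -212 to -194 and -107 to -89. Of these, the Calr match and the nearer Hsp90b1 match are on the other strand. Xbp1 has none of the 5 motifs, and Pdia4 has CCAAT at 3 places and CCACG at 1. Positions are from the RefSeq start. A match is a description of the sequence, and no match says only that these letters are not in the window. The elements and the members were both taken from what is known of the unfolded protein response. The shares of all windows are therefore no test of the members.

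**Figure D1:**
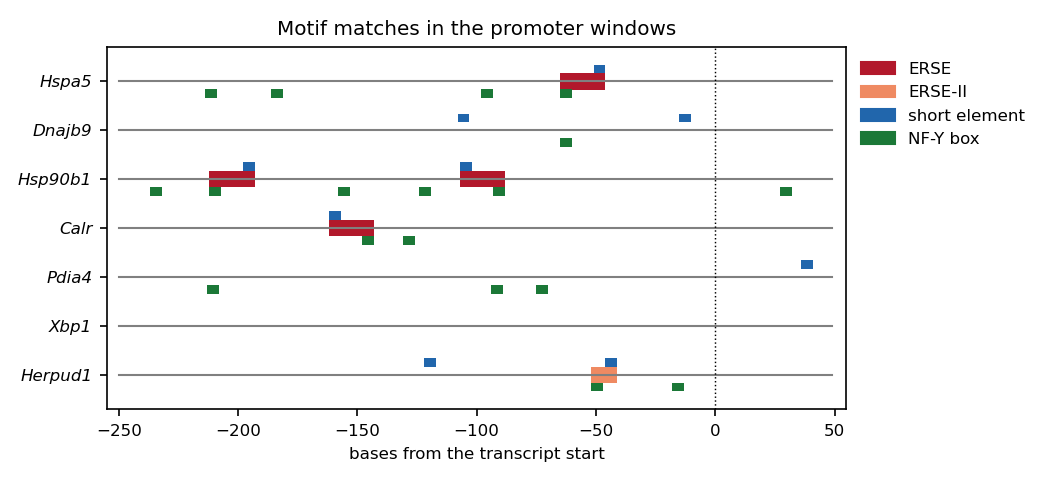
Positions of motif matches in the promoter windows of the 7 genes, in bases from the transcript start (0, dotted line). Thick bars are ERSE and ERSE-II, thin bars the short element (CCACG) above and the NF-Y box (CCAAT) below each line. Hspa5, Calr and Herpud1 each have 1 long element, Hsp90b1 has 2, and Xbp1 has no match.

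Across the 7 genes most calls came after T30, changes were large for 2 chaperone genes, and they did not go one way. Hspa5 and Dnajb9 ended 6.45-fold and 8.78-fold above intact tissue. Calr and Xbp1 ended about 2.09-fold and 1.82-fold above it, and Herpud1 and Pdia4 below it. Against T0, 0 members were called at T15 (0.67% of all genes) and 1 at T30 (5%). The number was 4 at T60 (56.2%), it was 5 at T90 (68.8%), and at T120 it was 7 (76.8%). Called means an adjusted p under 0.05 in edgeR's quasi-likelihood test with Benjamini-Hochberg adjustment over all listed genes, the test behind every adjusted p below. The 0 at T15 was also 0 with DESeq2 and limma-voom, and 1 member, Dnajb9, had an unadjusted p under 0.05 there. The members called from T60 on are thus read against a table in which most genes were called. At T60 the 4 were all higher (27.9% of all genes were called higher and 28.3% lower), and so were the 5 at T90 (33.8% higher, 35% lower). At T120 5 were higher and 2 lower (37.3% and 39.5%). The median log2 fold change of the members was 0.82 at T60 and 0.86 at T120, where the medians over all genes were -0.03 and -0.08. All 7 were called in the joint test for a change at any time, as were 85.7% of all genes.

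**Figure D2:**
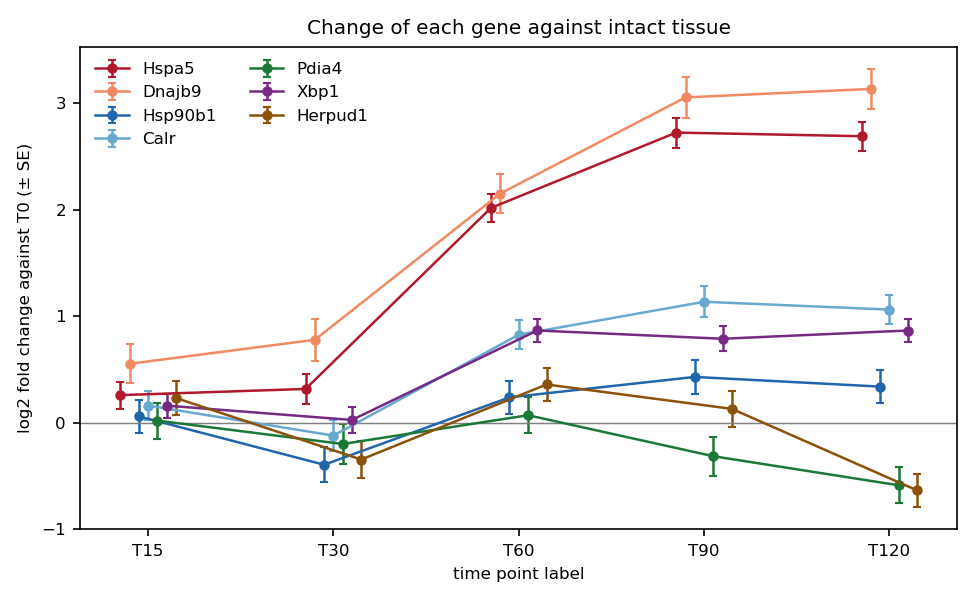
Log2 fold change against T0 (± SE, edgeR) of the 7 genes at each time point label, with points set slightly apart for legibility. Hspa5 and Dnajb9 reach 2.69 and 3.13 at T120, Calr and Xbp1 lie near 1 from T60 on, and Pdia4 and Herpud1 end below 0.

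Hspa5 (ENSMUSG00000026864, chr2:34771970-34777547 on GRCm38, + strand) encodes BiP, the Hsp70 chaperone of the ER lumen, which also holds the stress sensors inactive. Its level was 299, 248, 215 and 244 CPM in the T0 libraries A to D. It was 295, 296, 336 and 276 CPM at T15 and 303, 286 and 350 CPM at T30, ranges that overlap T0. At T60 it was 1050, 1055, 787 and 1176 CPM, so the lowest T60 library was more than any earlier one. At T90 it was 1838, 1447 and 1700 CPM, and at T120 1780, 1558, 1561 and 1591 CPM, all above all T60 libraries. Hspa5 rose by 2.02 ± 0.13 (log2, SE) from T0 to T60 (adjusted p = 7.77e-11). The difference from T0 was 2.72 ± 0.14 at T90 (adjusted p = 2.7e-12) and 2.69 ± 0.14 at T120 (adjusted p = 1.1e-12). At T30 it was 0.32 ± 0.14 with an adjusted p of 0.213, and 0.74 (adjusted p = 0.0116) with the background subtracted. The T60 and T120 differences were 1.66 and 2.43 with the background subtracted, and 2.07 and 2.78 without the 5 libraries.

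Dnajb9 (ENSMUSG00000014905, chr12:44205559-44210326, − strand) encodes ERdj4, a J-domain partner of BiP. Its levels at T0 were 22.02, 27.3, 19.6 and 16.8 CPM. At T15 they were 30.04, 27.99, 37.6 and 29.3 CPM and at T30 39.6, 32.2 and 37.7 CPM, so that all of these libraries lay above all T0 libraries. The difference at T15 was 0.55 ± 0.18 (log2) and did not pass the test (adjusted p = 0.508). At T30 it was 0.78 ± 0.20 (adjusted p = 0.022), the single member called at that point, where 3.66% of all genes were called higher. That call was lost without library 0D (0.67, adjusted p = 0.0795), without 30A (0.73, adjusted p = 0.088), with limma-voom (0.85, adjusted p = 0.0868) and without the 5 libraries of highest background (0.83, adjusted p = 0.335), which leaves 1 library at T30. With the background density subtracted it was 1.19 (adjusted p = 0.00177). Dnajb9 stood at 105, 96.8, 75.2 and 102 CPM at T60, at 208, 146 and 178 CPM at T90 and at 244, 151, 209 and 145 CPM at T120. The T90 and T120 libraries were all above the T60 libraries and spread widely among themselves. Dnajb9 rose by 2.15 ± 0.18 at T60 (adjusted p = 4.71e-09), 3.05 ± 0.19 at T90 (adjusted p = 3.19e-11) and 3.13 ± 0.19 at T120 (adjusted p = 8.64e-12). At T120 the difference was 3.33 with the background subtracted and 3.17 without the 5 libraries.

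Hsp90b1 (ENSMUSG00000020048, chr10:86690209-86705509, − strand) encodes GRP94, the Hsp90 of the ER. It changed little. The T0 libraries held 592, 516, 429 and 536 CPM and the T15 libraries 582, 569, 519 and 487 CPM. At T30 library 30C, at 528 CPM, was within that range, and libraries 30A and 30B, at 286 and 366 CPM, were below it; these are the libraries of highest background. The levels were 495, 674, 617 and 656 CPM at T60, 605, 700 and 786 CPM at T90, and 623, 727, 649 and 620 CPM at T120. All T90 and T120 libraries were above all T0 libraries, by a small margin. Hsp90b1 was higher than at T0 by 0.43 ± 0.16 at T90 (adjusted p = 0.0248) and 0.34 ± 0.15 at T120 (adjusted p = 0.0495). Both calls were lost with the background subtracted (0.05 at each point, adjusted p = 0.811 and 0.744). Without the 5 libraries the values were 0.44 and 0.38 (adjusted p = 0.0174 and 0.0256). The T120 call was lost in 11 runs that left out 1 library as well, and over all alternatives its adjusted p ran from 0.0148 to 0.744. The T90 call was also lost without any one of 0B, 0C, 90B and 90C, with adjusted p from 0.058 to 0.137. An annotated pseudogene, 1810014B01Rik, overlaps 4598 bases of Hsp90b1 on the other strand. The libraries are directional per the labels, but no source used here says whether counting used strand, so reads of the pair cannot be told apart.

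Because Hspa5 and Hsp90b1 counts come from the same library, their ratio needs no scaling, and it was set out as a description after the values were seen. The ratio was 0.505, 0.480, 0.502 and 0.456 in the T0 libraries and 0.507, 0.520, 0.647 and 0.566 at T15. It was 1.06, 0.781 and 0.664 at T30, with the highest value in the library of highest background. At T60 it was 2.12, 1.57, 1.28 and 1.79, at T90 3.04, 2.07 and 2.16, and at T120 2.86, 2.14, 2.41 and 2.57. Each library from T60 on had more Hspa5 than Hsp90b1 counts, and each library but 30A before T60 had fewer.

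**Figure D3:**
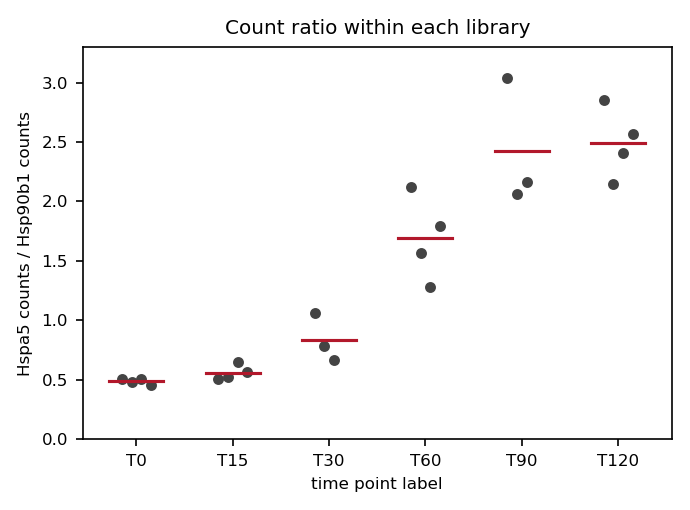
Ratio of Hspa5 to Hsp90b1 counts within each library, by time point label. Points are libraries and lines are means. The T0 mean is 0.486 and the T120 mean 2.49, and only library 30A exceeds 1 before T60.

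Calr (ENSMUSG00000003814, chr8:84841850-84846934, − strand) encodes calreticulin, a lectin chaperone of glycoproteins that also stores calcium. It stood at 540, 481, 412 and 479 CPM at T0, and at 524, 521, 558 and 532 CPM at T15. At T30 it was at 345, 395 and 576 CPM, with 30A and 30B again the low libraries. At T60 it was at 706, 901, 844 and 937 CPM, all above all earlier libraries. The levels were 927, 1070 and 1153 CPM at T90 and 976, 1076, 1000 and 939 CPM at T120. Calr rose by 0.82 ± 0.13 at T60 (adjusted p = 3.01e-05), 1.13 ± 0.14 at T90 (adjusted p = 6.53e-07) and 1.06 ± 0.14 at T120 (adjusted p = 4.44e-07). With the background subtracted the T60 difference was 0.43 (adjusted p = 0.0264) and the T120 difference 0.77. Without the 5 libraries they were 0.84 and 1.12.

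Pdia4 (ENSMUSG00000025823, chr6:47796141-47813430, − strand) encodes ERp72, a protein disulfide isomerase. It was not called higher than T0 at any time point. It was at 174, 152, 132 and 172 CPM at T0, 140, 178, 167 and 153 CPM at T15, and 97.2, 119 and 193 CPM at T30, where library 30C was above and 30A and 30B were below all T0 libraries. At T60 it was at 130, 176, 186 and 169 CPM. At T90 it was at 108, 141 and 131 CPM, a range that overlaps T0. The T120 libraries, at 91.6, 111, 122 and 94.6 CPM, were all below all T0 libraries. The T120 difference from T0 was -0.59 ± 0.17 (adjusted p = 0.00353). At T90 it was -0.32 ± 0.18 with an adjusted p of 0.13, which became -0.67 (adjusted p = 0.00205) with the background subtracted. The T120 difference was -0.86 with the background subtracted and -0.57 without the 5 libraries (adjusted p = 6.69e-05 and 0.00574).

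Xbp1 (ENSMUSG00000020484, chr11:5520659-5525893, + strand), the transcription factor, stepped up once. It held 86.4, 83.6, 84.1 and 71.8 CPM at T0, 93.0, 85.1, 95.9 and 89.3 CPM at T15, and 75.1, 77.4 and 95.0 CPM at T30. At T60 it held 130, 153, 127 and 183 CPM, above all earlier libraries. It held 133, 149 and 139 CPM at T90 and 140, 134, 153 and 165 CPM at T120, values that overlap those of T60. Xbp1 rose by 0.86 ± 0.11 at T60 (adjusted p = 1.78e-06), and the differences from T0 were 0.79 ± 0.12 at T90 and 0.86 ± 0.11 at T120 (adjusted p = 6.56e-06 and 5.52e-07). With the background subtracted they were 0.58, 0.51 and 0.67 at T60, T90 and T120, and without the 5 libraries 0.95, 0.89 and 0.99. The step from T30 to T60 was 0.29 with the background subtracted and was not called (adjusted p = 0.145).

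Herpud1 (ENSMUSG00000031770, chr8:94386438-94395377, + strand) encodes HERP, a membrane protein of ER-associated degradation, which takes misfolded proteins out for destruction. The T0 libraries were far apart, at 79.0, 117, 78.5 and 123 CPM, and those of T15 too, at 133, 136, 107 and 91.2 CPM. The levels were 78.6, 71.0 and 85.2 CPM at T30, 138, 113, 124 and 136 CPM at T60, and 90.4, 119 and 118 CPM at T90. At T120 they were 64.6, 55.8, 76.4 and 59.4 CPM, all below all T0 libraries and below all T90 libraries. Herpud1 fell by 0.64 ± 0.16 on the log2 scale from T0 to T120 (adjusted p = 0.001). The difference was -0.87 with the background subtracted and -0.85 without the 5 libraries. The T60 difference from T0 was 0.36 ± 0.16 with an adjusted p of 0.0564. It passed without any one of 0B, 0D, 15D and 90A and when only the libraries of T0 and T60 were fitted (adjusted p from 0.0168 to 0.0495). It was 0.06 with the background subtracted (adjusted p = 0.803) and 0.11 without the 5 libraries (adjusted p = 0.58). An antisense gene, Gm15890, overlaps 535 bases of Herpud1, and its reads cannot be told apart for the same reason as above.

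**Figure D4:**
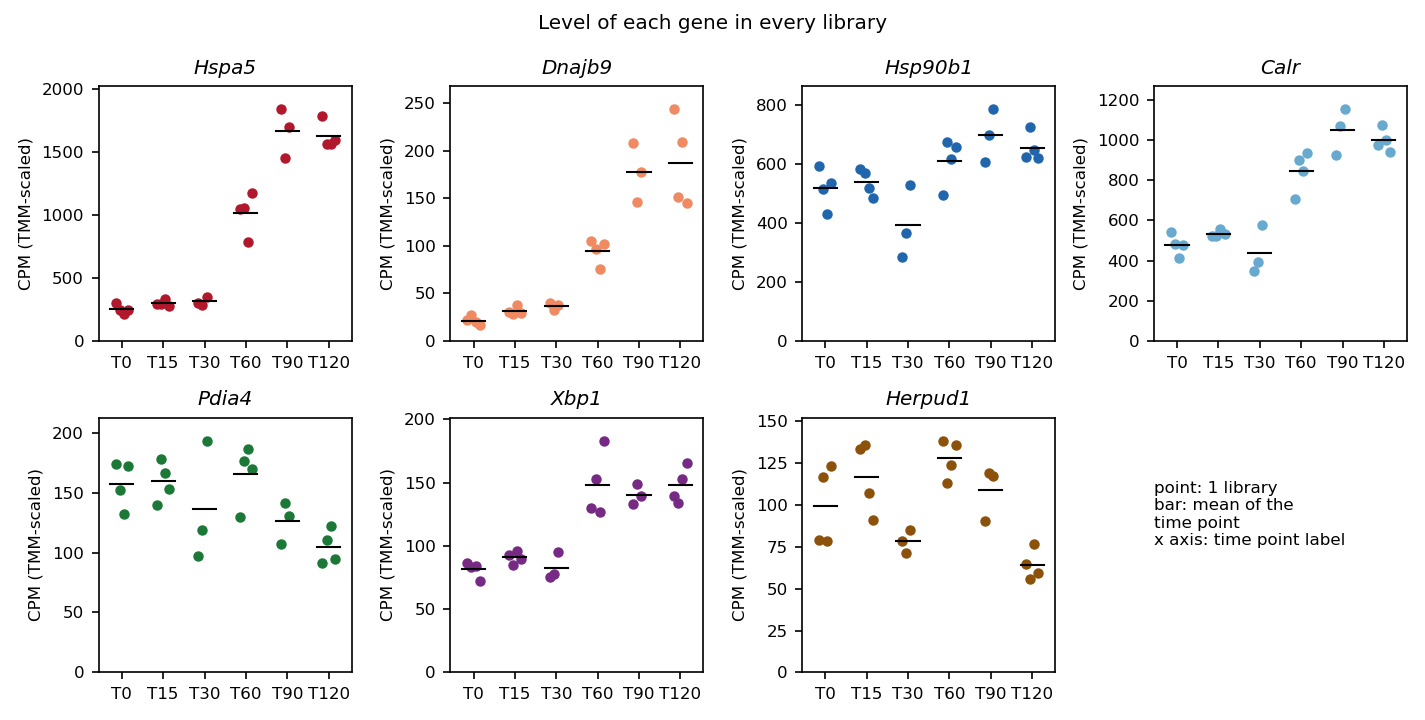
Level of each of the 7 genes in every library, in CPM scaled with TMM factors, by time point label. Points are libraries and bars are means. Hspa5, Dnajb9, Calr and Xbp1 separate between T30 and T60, and Pdia4 and Herpud1 have their lowest means at T120.

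Steps between neighbouring time points showed when each gene moved; each step shares a time point with the next. From T15 to T30, 0 members were called by edgeR (4.89% of all genes), with 2 at an unadjusted p under 0.05. DESeq2 called 1 there, Herpud1 (-0.56, adjusted p = 0.0281). Without library 30C, which leaves the T30 libraries of highest background, edgeR called 4 lower: Herpud1, Pdia4, Hsp90b1 and Calr. In that run 1096 of all 8059 genes were called, 423 of them lower, against 394 and 139 with all libraries. With the background subtracted Pdia4 (0.21), Hsp90b1 (0.05) and Calr (0.24) were on the other side of 0, and Hspa5 was called higher (0.63, adjusted p = 0.0377). From T30 to T60, 6 of the 7 were called, all higher (51% of all genes were called, 26.5% higher and 24.5% lower). Hspa5 rose by 1.70 ± 0.14 (adjusted p = 2.96e-08), Dnajb9 by 1.37 ± 0.19, Calr by 0.95 ± 0.15, Xbp1 by 0.84 ± 0.12, Herpud1 by 0.71 ± 0.17 and Hsp90b1 by 0.63 ± 0.17. Pdia4 differed by 0.27 ± 0.18 (adjusted p = 0.226). This step is where the background density differs most. After subtracting it, only Hspa5 (0.91, adjusted p = 0.0013) and Dnajb9 (1.05, adjusted p = 0.00195) were called. With that subtraction 2290 of 8051 genes were called at this step, 1306 of them higher. When the 5 libraries were left out, the differences were 1.53 for Hspa5, 1.31 for Dnajb9, 0.63 for Xbp1 and 0.55 for Calr. They were 0.57 for Herpud1, 0.20 for Hsp90b1 and -0.24 for Pdia4. There T30 is the single library 30C, and its spread is taken from the other time points.

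From T60 to T90 the 2 chaperone genes with the largest changes were called again (30.3% of all genes called, 16.7% higher). Hspa5 rose by 0.71 ± 0.14 (adjusted p = 0.000745) and Dnajb9 by 0.90 ± 0.18 (adjusted p = 0.000918). Without 30C edgeR called 4 members at this step, adding Calr (0.31, adjusted p = 0.0465) and Pdia4 (-0.39, adjusted p = 0.0442). In that run 2514 of 8059 genes were called, 1377 higher and 1137 lower. From T90 to T120 only Herpud1 was called, lower (23% of all genes called, 13.9% lower). Its difference was -0.77 ± 0.17 (adjusted p = 0.0033), against -0.03 ± 0.14 for Hspa5 and 0.08 ± 0.18 for Dnajb9, neither called.

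Per kb of exon the order of the genes changed. At T0 the mean levels were 166 CPM per kb for Calr, 129 for Hsp90b1, 65.6 for Pdia4, 59.5 for Hspa5, 42.6 for Herpud1, 25.1 for Xbp1 and 8.40 for Dnajb9. In that order Calr and Hsp90b1, Pdia4 and Hspa5, and Hspa5 and Herpud1 overlapped over libraries, and the other neighbours did not. At T120 Hspa5 came first, at 384 ± 25.01 CPM per kb (SD, n = 4), followed by Calr at 346 ± 20.1, a pair whose ranges overlap. Hsp90b1 followed at 162, Dnajb9 at 73.5, Xbp1 at 45.6, Pdia4 at 43.7 and Herpud1 at 27.5. Only Xbp1 and Pdia4 overlapped among those neighbours. Dnajb9 thus moved from the last place to the fourth.

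The authors' deposited table, which has its own fold changes and adjusted p-values, called 2 members at T30 and 5 at T60. The additions were Hspa5 at T30 (0.43, adjusted p = 0.0268) and Herpud1 at T60 (0.39, adjusted p = 0.0442) in the authors' deposited table. At T120 the authors' deposited table called the 7 members in the directions given above. From T60 to T90 it called 3 members, adding Calr (0.34, adjusted p = 0.0444 in the authors' deposited table). The share of all genes called with the authors' values was not computed, so these member counts have no share to be read against.

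The wider ER gene set was described with 5 lists holding 123 genes other than the members, of which 103 are in the table. Of these 103, 2 were called higher and 0 lower at T15, 3 and 2 at T30, 32 and 17 at T60, 42 and 25 at T90, and 47 and 29 at T120. Called in either direction were 1.94% at T15, 4.85% at T30 and 65% at T90, against 0.67%, 5% and 68.8% of all genes. At T90 40.8% were higher and 24.3% lower, against 33.8% and 35% of all genes. The T60 counts were 31.1% and 16.5% of the 103, against 27.9% and 28.3% of all genes. With the background subtracted the T60 counts were 18 and 15. Those were 17.5% and 14.6%, against 20.3% and 15.6% of all genes. At T120 73.8% were called (45.6% higher and 28.2% lower), against 76.8% of all genes (37.3% and 39.5%). The median log2 fold change of the 103 was 0.18, against -0.08 over all genes. With the background subtracted 38.8% were higher and 25.2% lower at T120, against 32.5% and 28.6% of all genes.

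Of the sensors and transcription factors 15 of 18 are listed. At T120 9 were higher and 3 lower (60% and 20%, against 37.3% and 39.5% of all genes). Of the 15 listed only Ppp1r15a and Atf4 were called at T15, which is 13.3%, against 0.67% of all genes. Ppp1r15a (GADD34, the induced subunit of the eIF2alpha phosphatase) went from 57.7 ± 4.46 CPM at T0 to 283 ± 69.5 at T15 and 528 ± 60.3 at T30 (SD, n = 4, 4 and 3). It rose by 2.29 ± 0.19 at T15 (adjusted p = 3.93e-08). Atf4, the transcription factor whose translation PERK favours, rose by 0.79 ± 0.13 at T15 (adjusted p = 0.00165) and 1.53 ± 0.14 at T30. Its T15 call was lost with the background subtracted (0.67, adjusted p = 0.164) and without the 5 libraries (0.83, adjusted p = 0.0656), while that of Ppp1r15a held under both (2.29 and 2.31). Ddit3 (CHOP), a target of ATF4, was called higher at T30 (0.94 ± 0.22, adjusted p = 0.0127) and T60 (0.77 ± 0.21) but not at T120 (-0.25 ± 0.21, adjusted p = 0.273). The T30 call of Ddit3 was lost without the 5 libraries (0.72, adjusted p = 0.217) and its T60 call with the background subtracted (0.61, adjusted p = 0.164).

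The sensor genes themselves went apart. Atf6 rose by 1.24 ± 0.12 at T60 and 2.50 ± 0.12 at T120 (adjusted p = 8.52e-13), from 78.5 to 83.2 CPM in the T0 libraries to 367 to 521 CPM. Ern1 (IRE1) rose by 2.23 ± 0.16 at T120, and Eif2ak3 (PERK) fell by 1.23 ± 0.12. Also higher at T120 were Ppp1r15a (3.99 ± 0.20), Atf4 (2.92 ± 0.14), Ppp1r15b (2.57 ± 0.13), the constitutive phosphatase subunit, and Creb3l1 (2.28 ± 0.45). The rest of the 9 were Wfs1 (1.17 ± 0.24), Nfe2l1 (0.98 ± 0.09) and Atf6b (0.62 ± 0.13). Mbtps1 (-0.67 ± 0.12) and Mbtps2 (-0.84 ± 0.16), the proteases that cut ATF6, were lower. With the background subtracted Mbtps2 turned to 0.71 and was not called (adjusted p = 0.597), while Mbtps1 was still called lower (-0.87). That left 2 of these 15 genes called lower (13.3%, against 28.6% of all genes). Without the 5 libraries Mbtps2 was at -0.52 and Mbtps1 at -0.73. Creb3 (0.01 ± 0.17) and Creb3l2 (-0.02 ± 0.11) were not called.

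Among the other ER chaperones and co-chaperones (25 of 30 listed) 6 were called higher and 12 lower at T120, which is 24% and 48% against 37.3% and 39.5% of all genes. The largest rises were in Dnajc25 (1.98 ± 0.13), Manf (1.75 ± 0.22), which encodes a stress-induced lumenal protein, and Dnajc3 (1.22 ± 0.12), a BiP partner. The largest falls were in Cnpy2 (-1.71 ± 0.17), Creld1 (-1.41 ± 0.17) and Fkbp2 (-1.27 ± 0.16), an ER prolyl isomerase. Of the disulfide and isomerase genes (13 of 17 listed) 4 were higher and 3 lower (30.8% and 23.1%). P4hb (0.82 ± 0.13), Ero1l (0.65 ± 0.19), the oxidase that recharges isomerases, and Pdia6 (0.53 ± 0.13) rose most, and Txndc12 (-1.04 ± 0.14), Tmx4 (-0.74 ± 0.14) and Erp29 (-0.60 ± 0.14) fell most. With the background subtracted 1 of the 13 disulfide and isomerase genes was higher and 2 lower (7.69% and 15.4%, against 32.5% and 28.6% of all genes). The members' own T120 differences ran from 3.13 for Dnajb9 to -0.64 for Herpud1.

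ER-associated degradation genes (25 of 29 listed) were higher in 14 and lower in 6 cases at T120 (56% and 24%, against 37.3% and 39.5% of all genes). With the background subtracted 48% were higher and 20% lower, against 32.5% and 28.6% of all genes. Edem1 (2.07 ± 0.11), which marks misfolded glycoproteins, and the ubiquitin-conjugating enzymes Ube2j1 (1.51 ± 0.14) and Ube2j2 (1.28 ± 0.12) rose most. Derl2 (-1.52 ± 0.23), Sel1l (-1.16 ± 0.10), the partner of the HRD1 ligase, and Faf2 (-1.12 ± 0.10) fell most, so Herpud1 was not the only gene of this pathway that was lower. Translocon, signal peptidase and oligosaccharyltransferase genes (25 of 29 listed) were higher in 14 and lower in 5 cases (56% and 20%). These shares were 52% and 20% with the background subtracted. Sec61a1 (1.183 ± 0.09), the channel subunit, Sec63 (0.99 ± 0.10) and Srpr (0.93 ± 0.12) rose most. Sec11c (-1.11 ± 0.21), Spcs2 (-0.74 ± 0.19) and Magt1 (-0.69 ± 0.11) fell most.

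**Figure D5:**
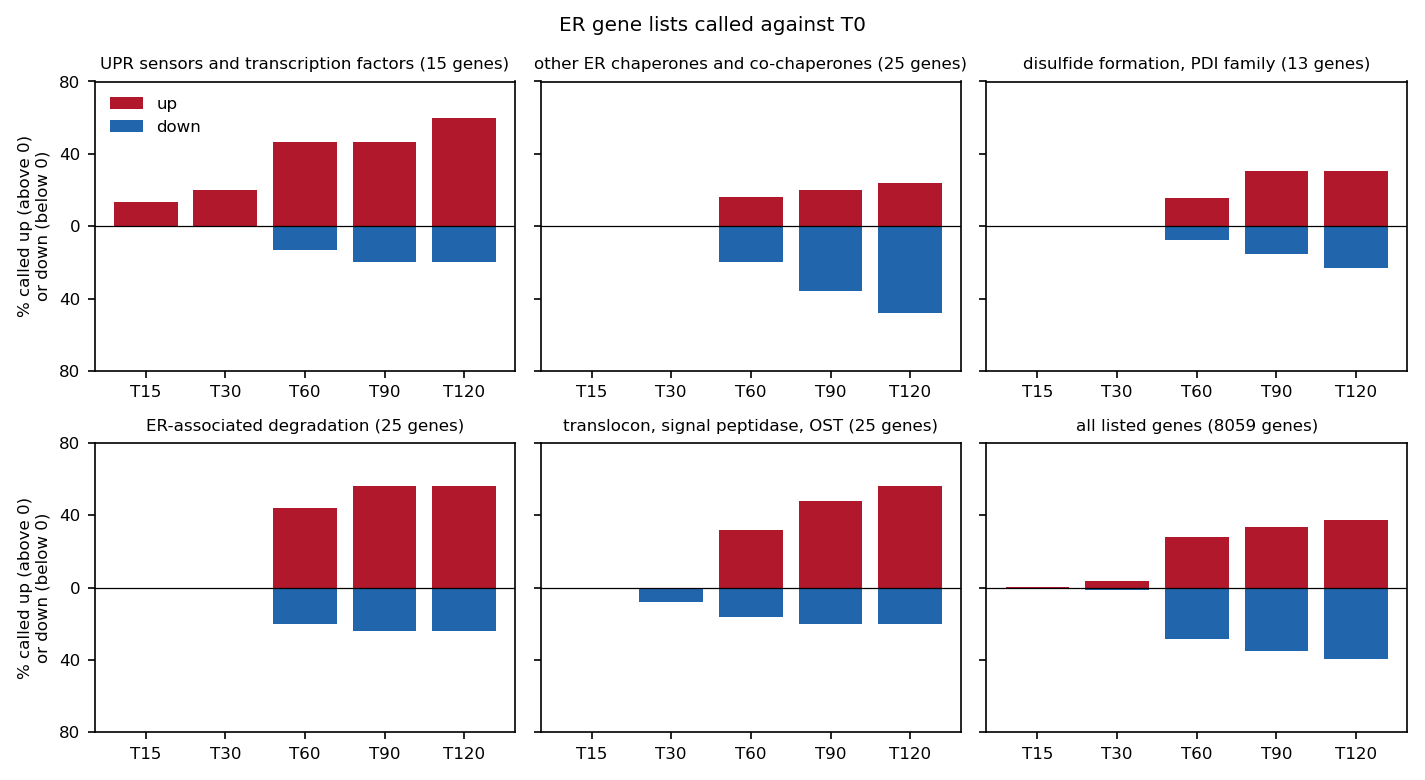
Percent of listed genes called higher (above 0) or lower (below 0) than T0 at each time point label, for the 5 ER lists and for all 8059 genes. OST is oligosaccharyltransferase. Of the 5 lists only that of sensors and transcription factors has genes called at T15, and the other chaperone list has more called lower than higher from T60 on.

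The genes whose log2 CPM followed each member most closely are given as a description. They rest on 22 libraries that fall into an early and a late set, which all pairs of genes share. For Hspa5 they were Ppp1r15b (Pearson's r = 0.995), Arf4 (0.994) and Asb5 (0.993), and for Dnajb9 Hspa5 (0.983), Hsp90aa1 (0.982) and Mex3c (0.982). For Xbp1 they were Dnajc3 (0.956), Rrbp1 (0.955) and Myl6 (0.95), and for Calr Rrbp1 (0.972), Calu (0.971) and Plec (0.971). Hsp90b1 was closest to Pdia3 (0.923), Copa (0.914) and Tcea1 (0.91). The members that ended lower had other neighbours: Notch2 (0.93), Rhoj (0.925) and Zcchc24 (0.895) for Herpud1, and Ptprs (0.908), Pcdhgc3 (0.888) and Fkbp9 (0.886) for Pdia4. Between members r ran from 0.983 for Hspa5 and Dnajb9 to -0.508 for Dnajb9 and Pdia4.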

How the data were processed

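Bulk counts of 22 libraries were used; 9 further samples were not analysed here. The deposited table holds whole-number counts per gene, and per the file headers also log2 fold changes and p-values adjusted for multiple tests, which the authors computed. Per the submitters' processing notes the tools were featureCounts 1.4.5-p3, cutadapt 1.11 and, among others, DESeq2 1.18.1, with build mm10; no source used here names an aligner or strand setting. Deposited counts were tested with edgeR 4.0.16 (R 4.3.3; TMM factors, filterByExpr, which kept all 8059 genes, time point as factor, no covariate), where SE is the size of the log2 difference divided by the root of F. All 22 columns matched a time point (0 unmatched), and 8049 identifiers matched GENCODE vM21. Alternatives used DESeq2 1.42.0, limma 3.58.1, RLE factors, fewer libraries, the replicate block and background subtraction. Scripts were tested on simulated data. Named genes were all members, every listed sensor and transcription factor, the up to 3 largest called rises and falls at T120 in each ER list, and the 3 genes closest to each member. Members and lists were chosen with earlier results of these data known; the background genes, the ratio and the set of other genes with an ERSE were chosen after their values were seen.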

Additional observations from a re-analysis of the deposited data

Results flagged for a closer look

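At T120 the Hspa5 level in library 120A, 1780 CPM, stood apart from those of the other T120 libraries, which lay between 1558 and 1591 CPM. Among 4 libraries its gap to the nearest one was larger than Dixon's 95% limit for the share of the whole range. Of the 28 combinations of member and 4-library time point this was the only one to pass, and chance flags about 1 in 20 such groups.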

How the results depend on the processing

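At T60, T90 and T120 the calls of Hspa5, Dnajb9, Xbp1 and Calr against T0 held under every alternative run, as did the T120 calls of Herpud1 and Pdia4. Members called at T30 against T0, 1 in the report, were 0 with limma-voom, 2 with background subtracted (Hspa5 0.74, adjusted p = 0.0116, and Dnajb9) and 0 without the 5 libraries of highest background. From T15 to T30 they were 1 with DESeq2 and 1 with background subtracted (Hspa5 0.63, adjusted p = 0.0377), and from T30 to T60 2 with background subtracted. Leaving out each library in turn gave 0 to 2 members at T30, 4 to 5 at T60, 4 to 6 at T90, 6 to 7 at T120, 0 to 4 from T15 to T30 (1 without 15D, Herpud1, and 4 without 30C), 6 to 7 from T30 to T60, 2 to 4 from T60 to T90, and 6 to 7 for a change at any time. The T120 call of Hsp90b1 (adjusted p = 0.0495) was lost in 11 of these runs, those without 0B, 0C, 0D, 15B, 15D, 30B, 60B, 90B, 90C, 120B or 120C; at T30 Hsp90b1 was called lower without 30C (-0.66, adjusted p = 0.0147), and Pdia4 at T90 too (-0.33, adjusted p = 0.0473).

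No label says that library letters pair the samples, and they were not treated as pairs, since same-letter correlations lay on both sides of 0 (mean 0.0451 over 51 pairs, -0.575 to 0.467, against a mean of -0.0158 over 150 other pairs). As a hint from the data only, 11 of 22 libraries correlated best with their own letter, more than 1 in 4. The replicate block on letters left 6 members called at T120 (Hsp90b1 0.33, adjusted p = 0.0637), turned Pdia4 at T15 to -0.0036, and changed no other member call.

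Sign changes occurred in 26 fold changes outside the leave-one-out runs and in 16 within them, and none was called after the change. With background subtracted these were, at T15, Pdia4 -0.13 and Hsp90b1 -0.10; at T30, Herpud1 0.0179, Pdia4 0.0818 and Calr 0.25; at T60, Pdia4 -0.29 and Hsp90b1 -0.15; and at T90, Herpud1 -0.17. From T15 to T30 they were Xbp1 0.25, Pdia4 0.21, Hsp90b1 0.0461 and Calr 0.24, from T30 to T60 Pdia4 -0.37 and Hsp90b1 -0.0929, the latter called in the report, and from T90 to T120 Hspa5 0.0538, Hsp90b1 0.0061 and Calr 0.0236. Without the 5 libraries they were, at T30, Pdia4 0.28, Hsp90b1 0.0357 and Calr 0.30; at T90, Herpud1 -0.11; from T15 to T30, Xbp1 0.0702, Pdia4 0.27 and Calr 0.12; and from T30 to T60, Pdia4 -0.24. Leave-one-out ranges that crossed 0 were, at T15, Pdia4 -0.0657 to 0.0683 and Hsp90b1 -0.0316 to 0.12; at T30, Xbp1 -0.0824 to 0.0933 and Calr -0.36 to 0.0284; at T60, Pdia4 -0.0117 to 0.18; from T15 to T30, Hspa5 -0.0078 to 0.14; from T60 to T90, Xbp1 -0.15 to 0.0311; and from T90 to T120, Hspa5 -0.12 to 0.0801, Dnajb9 -0.0317 to 0.24, Hsp90b1 -0.15 to 0.0196 and Calr -0.12 to 0.0144.

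Over all genes, calls at T30 went from 403 to 670 with background subtracted, 147 without the 5 libraries and 244 without 30A, and at T60 from 4533 to 2894 with background subtracted. From T15 to T30, 394 became 647 with DESeq2, 260 with limma-voom, 98 with only those time points, 69 without the 5 libraries, and 107 to 1140 without 1 of 15A, 15B, 15D, 30A, 30B and 30C. From T30 to T60, 4111 became 2290 with background subtracted and 1619 without the 5. From T60 to T90, 2441 became 963 with background subtracted and 1621 without 90A. From T90 to T120, 1851 became 674 with background subtracted, 793 with only those time points, and 907, 1097 and 1062 without 90B, 90C and 120D. The cause was not tested. Totals cover listed genes only, so weakly expressed genes were not measured.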

Other observations

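Other genes with an exact ERSE or ERSE-II in their promoter window were looked at after the data were seen. Of 49 genes with such a window 19 are in the table, 15 of them not members. At T120 8 of the 15 were called higher than T0 and 6 lower, where 37.3% and 39.5% of all genes were, and their median log2 fold change was 0.43, against -0.08 over all genes. Rcl1, which acts in ribosomal RNA processing, had the largest rise (1.82 ± 0.13, adjusted p = 8.82e-11), followed by Hnrnpa3 (1.29 ± 0.15), an RNA-binding protein gene, Syvn1 (1.25 ± 0.12), the HRD1 ubiquitin ligase of ER-associated degradation, and Dnajc3 (1.22 ± 0.12). Rbm39 rose by 0.78 ± 0.15. Canx, the membrane partner of calreticulin, rose by 0.56 ± 0.13 (adjusted p = 0.000758), Pdia6 by 0.53 ± 0.13 and Dnajb11, a BiP partner, by 0.43 ± 0.17 (adjusted p = 0.0267). Adcy3 (-1.56 ± 0.23) and Acacb (-1.50 ± 0.20) had the largest falls. Lrif1 (-1.26 ± 0.18), Spats2l (-1.10 ± 0.27), Pan2 (-1.07 ± 0.11) and Nucb1 (-0.43 ± 0.09) were also called lower. Creld2 was not called (-0.15 ± 0.24, adjusted p = 0.573). Canx, Creld2, Dnajb11, Dnajc3, Pdia6 and Syvn1 are also in the ER lists above, and all of these but Creld2 were called higher. Of the genes outside those lists, Rcl1, Hnrnpa3 and Rbm39 were called higher and all others lower. All adjusted p-values here are from edgeR, and this set of genes was chosen after the values were seen.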
